A study of Mus musculus with 8 samples.

Results

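The immediate early genes described here are 8 genes chosen by symbol (Fos, Fosb, Jun, Junb, Jund, Atf3, Egr1 and Ier2) of the 16349 in the table. All 8 were in the table, and 8 passed the filter on low values. Their RNA was measured by poly A sequencing of mouse germ cells in 4 groups with 2 libraries each. The groups were elongating spermatids with a conditional knockout of Carm1 by their label, elongating spermatids labelled wild type (WT), round spermatids labelled conditional knockout and round spermatids labelled WT. All groups were untreated and of C57BL/6 background, and each sample came from 8 pooled testes by centrifugal elutriation. Round spermatids have just completed meiosis, and elongating spermatids are reshaping the nucleus and building the tail. CARM1 methylates arginines in histones and other nuclear proteins, and the series asks which genes differ at either stage when it is lost. The sources used here do not give the Cre driver, the deleted exons or the age of the mice. The labels do not say that libraries of 1 group came from different pools of animals, so the p-values cover only the spread between libraries, and that spread may be technical.

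Immediate early genes are switched on within minutes of a stimulus without new protein synthesis, by factors that are already present, such as SRF and CREB. Their mRNAs are short-lived, and most of their products are transcription factors that act on a later set of genes. FOS and FOSB pair with JUN, JUNB or JUND through leucine zippers to form AP-1, and the JUN proteins also pair with each other and with ATF proteins such as ATF3. In spermatids, where the CREB relative CREM drives many genes, transcription ceases as the chromatin condenses.

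The promoters of 4 members are shown because each holds TGACG, a CRE half-site of the kind that CREB and CREM bind, and the study's title names an axis that includes CREM. Each runs from 250 bases before to 50 bases after the RefSeq start (GRCm38.p6), 5′ to 3′ on the gene's strand, and capitals mark TGACG or its reverse complement CGTCA.
Fos (chr12:85473640-85473939, plus strand): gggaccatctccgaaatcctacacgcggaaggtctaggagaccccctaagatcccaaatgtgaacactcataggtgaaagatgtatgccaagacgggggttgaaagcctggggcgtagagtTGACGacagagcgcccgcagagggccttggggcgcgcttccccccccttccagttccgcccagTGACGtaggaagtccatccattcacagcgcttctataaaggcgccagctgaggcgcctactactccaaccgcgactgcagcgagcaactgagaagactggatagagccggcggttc
Fosb (chr7:19309996-19310295, minus strand): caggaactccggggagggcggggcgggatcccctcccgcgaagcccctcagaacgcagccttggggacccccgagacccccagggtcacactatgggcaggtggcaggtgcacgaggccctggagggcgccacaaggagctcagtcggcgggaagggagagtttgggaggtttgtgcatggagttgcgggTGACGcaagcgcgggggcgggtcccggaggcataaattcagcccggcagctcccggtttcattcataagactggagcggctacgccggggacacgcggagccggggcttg
Junb (chr8:84978699-84978998, minus strand): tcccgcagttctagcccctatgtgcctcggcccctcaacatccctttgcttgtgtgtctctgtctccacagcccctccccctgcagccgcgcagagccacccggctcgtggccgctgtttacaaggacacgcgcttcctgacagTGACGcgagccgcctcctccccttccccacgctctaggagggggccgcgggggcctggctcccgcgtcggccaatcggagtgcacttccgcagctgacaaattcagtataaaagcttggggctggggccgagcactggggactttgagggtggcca
Atf3 (chr1:191183284-191183583, minus strand): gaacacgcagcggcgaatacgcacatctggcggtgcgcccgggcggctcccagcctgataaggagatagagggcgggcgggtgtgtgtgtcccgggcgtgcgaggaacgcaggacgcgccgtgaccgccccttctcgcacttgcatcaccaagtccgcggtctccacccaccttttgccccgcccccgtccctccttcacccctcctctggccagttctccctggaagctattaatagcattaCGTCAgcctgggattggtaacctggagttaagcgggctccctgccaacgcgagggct

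RefSeq promoters were matched for 6 of the 8 members, all but Egr1 and Ier2, and 4 of the 6 held TGACG on either strand, against 20.8% of 32851 promoters of the same length. It began 129 and 66 bases before the start of Fos, 60 before that of Fosb, 106 before that of Junb and, on the opposite strand, 7 before that of Atf3. The Jun and Jund windows held none, and the RefSeq start of Jund lies 1210 bases upstream of its GENCODE M21 start. The Atf3 window, which ends at 191183583, lies within the GENCODE M21 gene, whose 5′ end is at 191218039. It thus describes only that RefSeq start of Atf3. TGACGTCA, the full site that contains TGACG, was in 0 of the 6 windows and 1.79% of all promoters. The AP-1 site TGANTCA (7.81% of all) and the CArG box of SRF (1.63%) were likewise in 0 of 6. TATAAA was in 2 of 6, Fos and Junb (13.6% of all), and GCGNGGGCG, the letters EGR proteins bind, in 1 of 6, Fosb (5.55%). Both strands were searched, and a match describes these letters only. An absence covers only exact matches within these windows, not sites further away or in other letters.

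The 3′ UTRs, taken as the longest annotated for each gene, held TATTTAT, an AU-rich motif of short-lived mRNAs, in 5 of 8 members, against 28.4% of 14458 genes. Fos had 2 copies in 815 bases, while Atf3, Fosb, Jun and Jund had 1 each in 1186, 2302, 1233 and 533 bases. ATTTA, which lies within it, was in 7 of 8 members, all but Ier2, against 68.1% of genes. All but Fosb were shorter than the median of 1253 bases over these genes. The nonamer TTATTTATT was in 1 member, Fos, against 7.63% of genes.

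Most levels below are normalised read counts, that is, reads divided by 1 size factor per library. Reads-per-million (RPM) levels are given beside them because they use the total reads instead, and the 2 scales differ here. The libraries held 17190962 to 23526694 recovered reads, and the 50 genes with the highest mean share took 34% of them in both elongating KO-labelled, 31.2% in both elongating WT, 8.23% and 8.38% in round KO-labelled and 8.2% and 8.14% in round WT libraries. Carm1 itself measured 8157 and 7993 normalised counts in elongating KO-labelled against 4308 and 4534 in elongating WT libraries, and 1174 and 1343 in round KO-labelled against 1649 and 1686 in round WT. In RPM it had 180 in both elongating KO-labelled against 143 and 149 in elongating WT libraries, 1.24-fold beside 1.83-fold as deposited. Round KO-labelled libraries had 101 and 115 RPM against 151 and 154 RPM in round WT. The elongating values go against the knockout label, although a gene total also counts exons outside a deletion, so libraries are called KO-labelled and every direction rests on these labels. The 15 spermatid markers summed to 121000 to 122000 RPM in elongating KO-labelled, 101000 to 102000 in elongating WT, 19700 to 20100 in round KO-labelled and 19300 to 19600 RPM in round WT libraries. In bulk samples, fewer cells of a type and less RNA per cell cannot be told apart.

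In normalised counts every member was highest in elongating KO-labelled libraries, followed by elongating WT, round KO-labelled and round WT, without overlap of neighbouring groups. Over all genes tested, 35.2% were higher without overlap in KO-labelled than in WT libraries in elongating and 38.1% in round cells. The share of genes following the whole order was not counted. In RPM the elongating groups overlapped for Jund, and Ier2 was lower in elongating KO-labelled than in elongating WT libraries. Fosb overlapped in RPM between elongating WT (9.95 and 11.9) and round KO-labelled libraries (10.3 and 11). Jund, the JUN family gene known for steady expression in resting cells, was the most abundant per exon length in all 4 groups. It measured 84 ± 7.23 RPM per kb of exon (RPKM) in elongating KO-labelled, 83.8 ± 3.57 in elongating WT, 36 ± 0.906 in round KO-labelled and 26.4 ± 2.47 RPKM in round WT spermatids (SD, n = 2 each). Fos came next in the first 3 of these groups at 18.5, 16.1 and 2.98 RPKM, while in round WT Egr1 was next at 1.79 RPKM and Fos had 0.888 RPKM.

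Further down the order some neighbours overlapped. In elongating KO-labelled cells these were Junb and Egr1, both at 11.7 RPKM, and in elongating WT Fosb and Atf3, at 1.75 and 1.61 RPKM. In round KO-labelled cells Egr1 and Junb overlapped at 2.66 and 2.45 RPKM, and Fosb and Jun at 1.7 and 1.69. In round WT cells Jun, Fos and Junb followed each other at 0.995, 0.888 and 0.838 RPKM. Ier2 was the lowest in elongating KO-labelled cells, at 2.79 RPKM, and Atf3 in the other groups. Exon lengths are those of GENCODE M21, which may differ from the annotation the authors counted on.

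**Figure D1:**
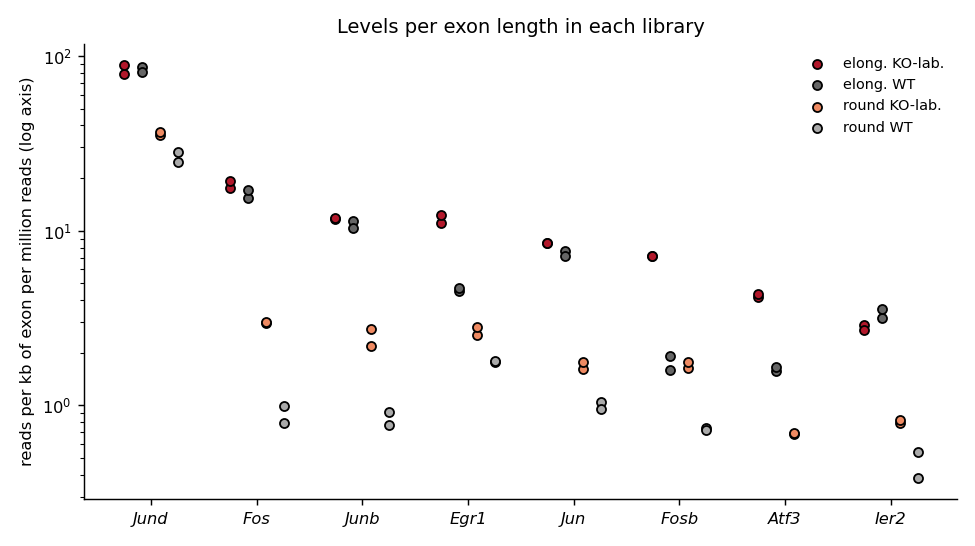
RPM per kb of exon (RPKM, log axis) of each gene, with 1 point per library and the groups elongating KO-labelled, elongating WT, round KO-labelled and round WT in colour. Jund lies highest in every group, between 24.6 and 89.2 RPKM, and Atf3, at 0 in both round WT libraries, is not drawn there.

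**Figure D2:**
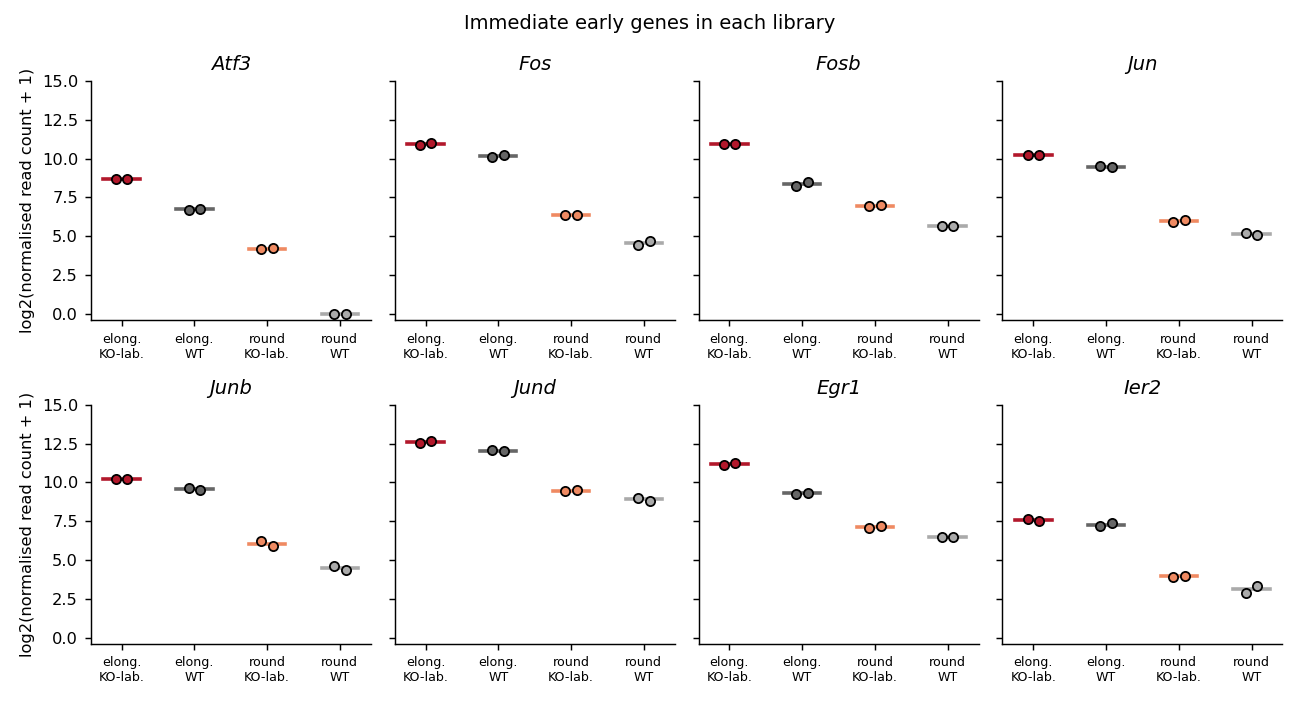
log2(normalised read count + 1) of each gene in each library (points), with the mean of the 2 libraries as a line. All 8 genes fall in the order elongating KO-labelled, elongating WT, round KO-labelled, round WT, and Atf3 is at 0 in both round WT libraries.

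In elongating spermatids 7 of the 8 members rose in KO-labelled against WT libraries, where 27.3% of the 15685 genes tested rose. Fosb, Atf3 and Egr1 differed most, and these 3 were the members that also rose by total reads, where 8.89% of genes rose. With library sizes that leave out the 50 most abundant genes, 5 members and 10.5% of genes rose. The median member was at log2 0.76 as deposited and 0.2 by total reads, beside -0.07 and -0.61 for the median of all genes. Measured from that median the members stood at 0.83 and 0.81. All 8 members lay higher without overlap as deposited, as did 35.2% of genes.

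Fos, the best known early gene and a partner of the JUN proteins, had 1875 and 2017 normalised counts in elongating KO-labelled against 1085 and 1214 in elongating WT libraries. Its groups stood apart (log2 0.76, SE 0.11, adjusted p = 2.6e-05, limma with Benjamini-Hochberg adjustment over all genes, as for every adjusted p not otherwise named). By share of reads, at 41.5 and 45.5 RPM in KO-labelled against 36 and 39.9 RPM in WT libraries, the gap was narrow and was not called (log2 0.2, adjusted p = 0.11).

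Fosb, whose protein takes the place of FOS in AP-1, had 2009 and 1976 normalised counts in elongating KO-labelled against 300 and 362 in elongating WT libraries. Both KO-labelled libraries were far above both WT ones, 6.02-fold by the means (log2 2.59, SE 0.099, adjusted p = 2.1e-11). In RPM it had 44.4 and 44.5 in KO-labelled against 9.95 and 11.9 in WT libraries, 4.07-fold (log2 2.03, adjusted p = 1e-10), the largest difference of any member at this stage on either scale.

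Jun, which encodes the AP-1 partner of FOS, had 1222 and 1207 normalised counts in elongating KO-labelled against 737 and 695 in elongating WT libraries (log2 0.76, SE 0.099, adjusted p = 1.1e-05). Junb, whose protein is a weaker activator than JUN, had 1206 and 1208 in KO-labelled against 793 and 728 in WT libraries (log2 0.67, SE 0.12, adjusted p = 0.0003). Jund had 5954 and 6596 in KO-labelled against 4347 and 4124 in WT libraries (log2 0.57, SE 0.063, adjusted p = 2.2e-06). Each of these 3 genes rose as deposited, with both KO-labelled libraries above both WT ones.

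By total reads none of the 3 was called. Jun had 27 and 27.2 RPM in elongating KO-labelled against 24.4 and 22.9 RPM in elongating WT libraries (log2 0.2, adjusted p = 0.087), and Junb 26.7 and 27.2 against 26.3 and 23.9 RPM (log2 0.1, adjusted p = 0.46). Jund, with 132 and 149 RPM in KO-labelled against 144 and 136 RPM in WT libraries, overlapped (log2 0.00, adjusted p = 0.98).

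Atf3, whose protein is a stress-induced repressor, had 405 and 415 normalised counts in elongating KO-labelled against 102 and 108 in elongating WT libraries (log2 1.96, SE 0.24, adjusted p = 6e-06), from 209 and 220 reads against 79 and 75. It also stood apart in RPM, at 8.96 and 9.35 in KO-labelled against 3.37 and 3.56 in WT libraries (log2 1.39, adjusted p = 0.0002). Egr1, the zinc finger factor of growth factor responses, had 2252 and 2451 normalised counts in KO-labelled against 612 and 643 in WT libraries (log2 1.9, SE 0.082, adjusted p = 5.9e-11). Its groups were far apart in RPM too, at 49.8 and 55.3 in KO-labelled against 20.3 and 21.1 in WT libraries (log2 1.34, adjusted p = 1.6e-09).

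Ier2, which encodes a small nuclear protein, was not called on either scale. It had 198 and 183 normalised counts in elongating KO-labelled against 144 and 166 in elongating WT libraries (log2 0.3, SE 0.22, adjusted p = 0.27), and 4.37 and 4.12 RPM in KO-labelled against 4.78 and 5.45 RPM in WT (log2 -0.26, adjusted p = 0.3). The 2 scales put its KO-labelled libraries on opposite sides of the WT ones.

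In round spermatids all 8 members rose in KO-labelled against WT libraries, where 19.4% of genes rose. By total reads all 8 rose as well, where 14.0% of genes did, and with DESeq2 7 of 8 rose, all but Ier2, where 17.5% did. No member overlapped between the groups, and 38.1% of genes were higher without overlap. The median member was at log2 1.06, also with Atf3 at its bound of 4.22, beside 0.03 for all genes. The scales differed little here, the median of all genes moving by -0.09. Each gene has 1 SE shared by all 4 groups, although round cells held fewer reads of every member. In round cells and in the comparison between stages it may therefore be too small. With limma on the 4 round libraries alone all 8 members were still called. The adjusted p was then larger for Jun (0.000556) and Ier2 (0.0347) than given below, and smaller for Jund (2.1e-06).

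Atf3 had 27 and 31 reads in round KO-labelled libraries, or 17.2 and 17.5 normalised counts, and 0 reads in both round WT libraries. Set against a floor of 3 reads over the round WT group (0.0849 RPM), it was at least 18.6-fold higher in KO-labelled cells as deposited and at least 17.5-fold by total reads. These bounds cover counting error of the group at 0 reads only and take the 58 KO-labelled reads as observed.

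Fos had 81.4 and 82.3 normalised counts in round KO-labelled against 20.4 and 25.4 in round WT libraries (log2 1.8, SE 0.11, adjusted p = 1.6e-08), 3.57-fold as deposited and 3.36-fold by total reads. It rested on 128 and 146 reads in KO-labelled and 32 and 42 in WT libraries. Fosb had 120 and 128 normalised counts in KO-labelled against 50.3 and 49.6 in WT libraries (log2 1.29, SE 0.099, adjusted p = 2.4e-07). Both FOS family members stood well apart between the groups.

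Junb had 73.1 and 58.6 normalised counts in round KO-labelled against 22.9 and 19.4 in round WT libraries (log2 1.59, SE 0.12, adjusted p = 2.4e-07). Jun had 59.8 and 65.9 in KO-labelled against 36.3 and 33.3 in WT libraries (log2 0.84, SE 0.099, adjusted p = 1.5e-05). Jund had 687 and 714 in KO-labelled against 513 and 452 in WT libraries (log2 0.54, SE 0.063, adjusted p = 1.3e-05). Of the JUN genes, Junb thus had the largest and Jund the smallest difference, 3.12-fold and 1.45-fold.

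Egr1 had 131 and 147 normalised counts in round KO-labelled against 87.2 and 88.4 in round WT libraries (log2 0.66, SE 0.082, adjusted p = 2.5e-05). Ier2 had 22 and 26 reads in KO-labelled against 10 and 15 in WT libraries, or 14 and 14.6 against 6.36 and 9.08 normalised counts (log2 0.83, SE 0.22, adjusted p = 0.0095). Its call ended without round KO-labelled replicate 2 (log2 0.80, adjusted p = 0.0541), without round WT replicate 1 (log2 0.60, adjusted p = 0.0936) and with DESeq2 (log2 0.88, adjusted p = 0.0781).

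**Figure D3:**
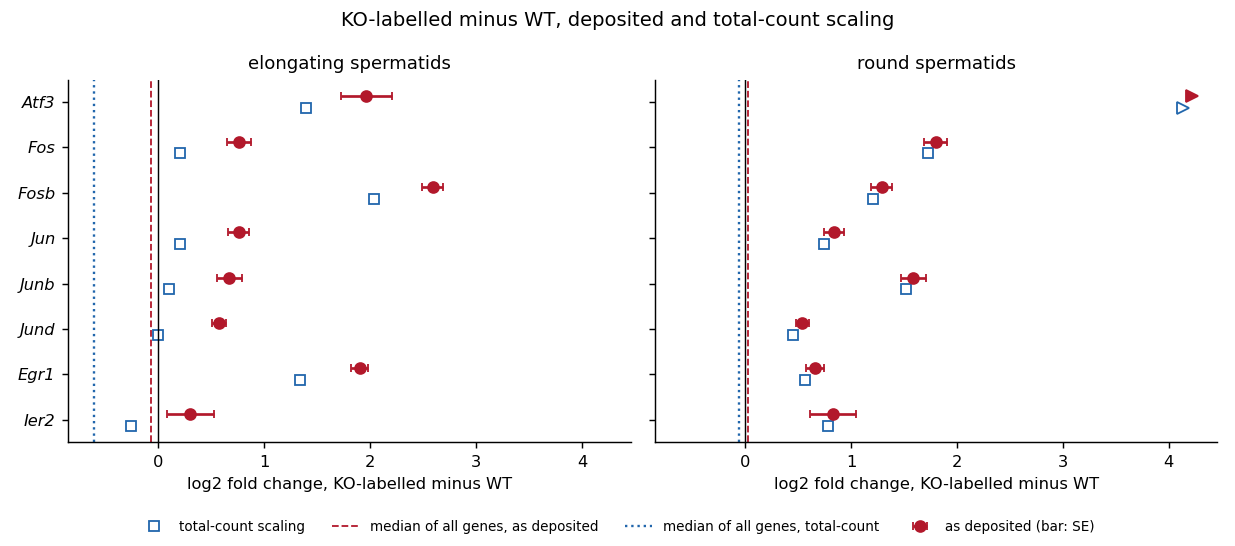
log2 fold change of each gene, KO-labelled minus WT, in elongating (left) and round (right) spermatids, as deposited (filled circles, bars SE) and by total reads (open squares), with the median of all genes on each scale as a dashed or dotted line. Triangles mark lower bounds for Atf3, which had 0 reads in round WT, and in elongating spermatids Fosb, Egr1 and Atf3 lie above 1 on both scales.

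The difference between KO-labelled and WT cells was itself compared between the stages, and 5 of the 8 members were called. For 2 of them, Fosb and Egr1, it was larger in elongating spermatids, and for 3, Fos, Junb and Atf3, larger in round spermatids. Over all genes, 19.3% were called with elongating minus round above 0 and 17.5% below 0. These shares go by sign, and for genes that fell in KO-labelled cells the sign does not give the stage of the larger difference. Fosb stood at log2 2.59 in elongating and 1.29 in round cells (difference of log2 1.3, SE 0.14, adjusted p = 3.6e-06), and Egr1 at 1.9 and 0.66 (difference of log2 1.25, SE 0.12, adjusted p = 7.3e-07). Fos stood at 0.76 in elongating and 1.8 in round cells (difference of log2 -1.04, SE 0.15, adjusted p = 6.5e-05), and Junb at 0.67 and 1.59 (difference of log2 -0.92, SE 0.17, adjusted p = 0.00063). The value fitted for Atf3 rests on a group at 0 reads and depends on the added 1, and with 5 added in its place Atf3 was no longer called (log2 -0.24, adjusted p = 0.499).

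By total reads all 8 members were called, 2 with the larger difference in elongating and 6 in round cells. By sign, 5.47% of all genes were called above 0 and 45.1% below 0 on that scale. With library sizes that leave out the 50 most abundant genes the counts were also 2 and 6, and the shares 6.75% and 40.9%. Fosb, Egr1, Fos and Junb kept their directions by total reads, at 0.81, 0.77, -1.54 and -1.42. The other 3 were not called as deposited. Jun was at -0.07 (adjusted p = 0.72) as deposited and -0.56 by total reads, Jund at 0.03 (adjusted p = 0.85) and -0.45, and Ier2 at -0.53 (adjusted p = 0.2) and -1.04.

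Elongating spermatids had more of all 8 members than round spermatids, in KO-labelled and in WT cells and on both scales. As deposited 42.6% of genes rose in KO-labelled and 41.7% in WT cells, and by total reads 16.7% and 19.6%. All 8 were higher without overlap in both, as were 46.0% of genes in KO-labelled and 46.1% in WT cells. By total reads the median member was at log2 2.19 in KO-labelled and 2.84 in WT cells, where the median of all genes was at -1.87 and -1.42. As deposited the members' medians were 4.13 and 4.25, the second also with Atf3 at its bound, and both medians of all genes 0.01.

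Fos had 36 and 39.9 RPM in elongating WT against 1.86 and 2.31 RPM in round WT libraries, 18.2-fold (log2 4.16, adjusted p = 2.6e-15) and 50.2-fold as deposited. Junb was next with 26.3 and 23.9 RPM in elongating WT against 2.09 and 1.76 RPM in round WT libraries, 13-fold (log2 3.67, adjusted p = 8e-14). Fosb and Egr1 lay at the other end. Fosb had 9.95 and 11.9 RPM in elongating WT against 4.6 and 4.52 RPM in round WT libraries (2.4-fold), and Egr1 20.3 and 21.1 against 7.97 and 8.05 RPM (2.59-fold).

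Jun, Ier2 and Jund lay between these in WT cells, at 7.45-fold, 7.27-fold and 3.18-fold by total reads. Atf3, with 154 reads in elongating WT and 0 in round WT libraries, lay above Fos on both scales. Against the floor of 3 reads over the group it was at least 113-fold higher as deposited and at least 40.8-fold by total reads.

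In KO-labelled cells the range over the members was narrower by total reads. Jund was lowest, with 132 and 149 RPM in elongating KO-labelled against 59 and 61.1 RPM in round KO-labelled libraries (2.33-fold), and Fos highest, with 41.5 and 45.5 against 6.99 and 7.05 RPM (6.2-fold). Fosb was at 4.18-fold, with 44.4 and 44.5 RPM in elongating KO-labelled against 10.3 and 11 RPM in round KO-labelled libraries. Atf3 was at 6.17-fold, Jun at 5.03-fold, Junb at 4.77-fold, Egr1 at 4.41-fold and Ier2 at 3.46-fold. The stage comparisons use the same libraries as the knockout comparisons and are not independent of them.

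**Figure D4:**
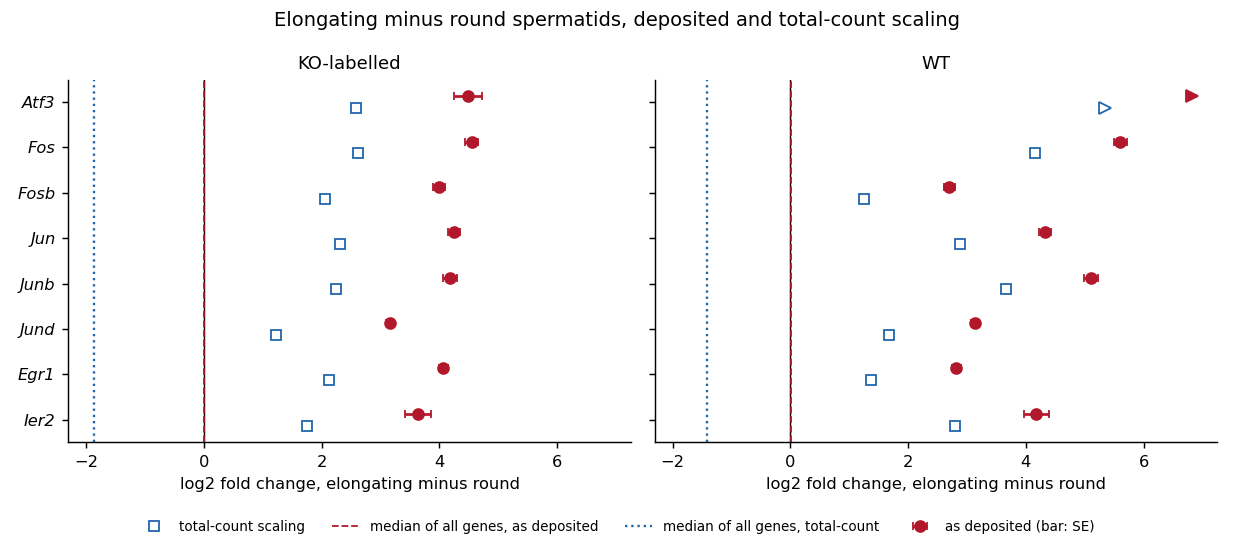
log2 fold change of each gene, elongating minus round spermatids, in KO-labelled (left) and WT (right) cells, as deposited (filled circles, bars SE) and by total reads (open squares), with the median of all genes on each scale as a dashed or dotted line. All members lie above 0 on both scales, and triangles mark lower bounds for Atf3 in WT cells.

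Markers of other testis cells moved with the stage as well. As deposited 17 of 17 Sertoli, 15 of 15 macrophage, 5 of 5 Leydig and 14 of 17 peritubular and vascular markers were higher in elongating than in round KO-labelled cells, and the same numbers in WT cells. By total reads 15, 14, 4 and 12 were in KO-labelled and 17, 15, 4 and 12 in WT cells. Of all genes, 42.6% in KO-labelled and 41.7% in WT cells rose as deposited, and 16.7% and 19.6% by total reads. Sertoli markers summed to 141 RPM in elongating KO-labelled, 300 to 303 in elongating WT, 34 to 34.1 in round KO-labelled and 55.6 to 57.1 RPM in round WT libraries. Macrophage markers summed to 705 to 713 RPM in elongating KO-labelled, 800 to 807 in elongating WT, 303 to 311 in round KO-labelled and 292 to 300 RPM in round WT libraries. Aif1 alone made up 86% of the sum in elongating KO-labelled, 58.1% in elongating WT, 93.5% in round KO-labelled and 94.9% in round WT libraries. The other 14 macrophage markers summed to 99.5 to 99.6 RPM in elongating KO-labelled, 336 to 338 in elongating WT, 19.2 to 20.6 in round KO-labelled and 13.8 to 16.2 RPM in round WT libraries. The follicle-stimulating hormone receptor Fshr, a Sertoli marker, was at 0 in both round KO-labelled libraries, and no other tested marker was at 0 in a whole group. Peritubular and vascular markers summed to 124 to 126 RPM in elongating KO-labelled, 111 to 116 in elongating WT, 53.7 to 55.8 in round KO-labelled and 42.8 to 44.3 RPM in round WT libraries. Leydig markers summed to 6.42 to 6.73 RPM in elongating KO-labelled, 9.61 to 9.77 in elongating WT, 2.13 to 2.17 in round KO-labelled and 2.2 to 2.5 RPM in round WT libraries. The part of such cells in the members' stage differences was not tested.

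Between KO-labelled and WT cells the somatic markers took several directions. In elongating KO-labelled cells 0 rose and 10 fell of the Sertoli, 1 rose and 14 fell of the macrophage, 7 rose and 2 fell of the peritubular and vascular and 1 rose and 0 fell of the Leydig markers. By total reads 0 rose and 14 fell of the Sertoli, 1 rose and 14 fell of the macrophage, 5 rose and 8 fell of the peritubular and vascular, whose balance turned, and 1 rose and 1 fell of the Leydig markers. The macrophage marker that rose there was Aif1, which averaged 27300 normalised counts in KO-labelled against 14100 in WT libraries. In round KO-labelled cells 0 rose and 10 fell of the Sertoli, 6 rose and 0 fell of the macrophage, 6 rose and 1 fell of the peritubular and vascular and 0 rose and 1 fell of the Leydig markers. By total reads 0 rose and 11 fell of the Sertoli, 5 rose and 1 fell of the macrophage, 6 rose and 1 fell of the peritubular and vascular and 1 rose and 1 fell of the Leydig markers. As deposited 7 of the 17 Sertoli markers fell at both stages, a share not counted over all genes. Of all genes, 27.3% rose and 27.7% fell in elongating KO-labelled cells as deposited, and 19.4% rose and 12.6% fell in round ones. By total reads these shares were 8.89% and 62.8% in elongating and 14.0% and 19.5% in round cells.

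Of the germ cell markers, 10 rose and 5 fell among 15 for spermatids, 2 rose and 9 fell among 12 for spermatocytes and 1 rose and 5 fell among 10 for spermatogonia in elongating KO-labelled cells. In round KO-labelled cells 9 rose and 0 fell for spermatids, 2 rose and 5 fell for spermatocytes and 3 rose and 0 fell for spermatogonia. By total reads 8 rose and 5 fell of the spermatid, 0 rose and 12 fell of the spermatocyte and 0 rose and 7 fell of the spermatogonia markers in elongating cells, and 4 rose and 1 fell, 1 rose and 6 fell and 0 rose and 0 fell of these 3 lists in round cells. Spermatocyte markers summed to 626 to 636 RPM in elongating KO-labelled, 836 to 848 in elongating WT, 2620 to 2640 in round KO-labelled and 2690 to 2720 RPM in round WT libraries. Ybx3 alone made up 93.3% of the sum in elongating KO-labelled, 89.6% in elongating WT, 72.9% in round KO-labelled and 68.4% in round WT libraries. The other 11 spermatocyte markers summed to 41.5 to 43 RPM in elongating KO-labelled, 85.6 to 89 in elongating WT, 711 to 715 in round KO-labelled and 850 to 862 RPM in round WT libraries. Spermatogonia markers summed to 19.2 to 21.5 RPM in elongating KO-labelled, 37.3 to 37.9 in elongating WT, 77.5 to 82.8 in round KO-labelled and 77 to 77.7 RPM in round WT libraries. The counts of germ cell markers stand beside the shares of all genes given for the somatic markers. The part of any of these cells in the members' differences between KO-labelled and WT cells was not tested.

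Of 53 other early response genes, 25 rose and 7 fell in elongating KO-labelled cells and 15 rose and 4 fell in round KO-labelled cells, beside the 27.3% and 27.7% and the 19.4% and 12.6% of all genes. Their medians were log2 0.21 and 0.07, against -0.07 and 0.03 for all genes. By total reads 16 rose and 24 fell in elongating cells, so their balance turned, and 14 rose and 7 fell in round cells. On that scale 8.89% and 14.0% of all genes rose at these stages and 62.8% and 19.5% fell. Of these genes 14 were called at both stages, a share not counted over all genes, and 11 of them were higher in KO-labelled cells at both. Egr2, the relative of Egr1, was among them. It averaged 53.6 normalised counts in elongating KO-labelled against 5.39 in elongating WT (log2 3.11, SE 0.37, adjusted p = 4.4e-06), and 11.4 in round KO-labelled against 3.1 in round WT (log2 1.59, SE 0.37, adjusted p = 0.004).

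In elongating cells Cebpd, a C/EBP factor of acute responses, rose by 2.52 on the log2 scale, and Ptgs2, the inducible cyclooxygenase, had 20 reads in KO-labelled and 1 in WT libraries, a ratio of 28.1 (exact 95% interval 4.49 to 1160). Ier5 fell by 1.02, as did Nr4a2 by 1.25 and Dusp6 by 0.85, the last 2 losing their call without elongating KO-labelled replicate 1 (adjusted p = 0.068) and when any 1 of 3 elongating libraries was left out (up to 0.11). In round cells Socs3, a feedback inhibitor of cytokine signalling, rose by 2.18 and Ier3 by 1.7. Nab1, a corepressor of EGR proteins, fell by 1.42, Dusp1, a phosphatase of MAP kinases, by 0.69 and Npas4 by 0.69, whose call ended when any 1 round library was left out (up to 0.29).

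Among 9 relatives of the AP-1 members (FOS-like, MAF and BATF genes), 2 rose and 1 fell in elongating and 2 rose and 1 fell in round KO-labelled cells, with medians of -0.25 and 0.29. By total reads 1 rose and 4 fell in elongating cells, and 2 rose and 1 fell in round cells. Of all genes, 27.3% rose and 27.7% fell in elongating and 19.4% rose and 12.6% fell in round cells as deposited. By total reads these shares were 8.89% and 62.8% in elongating and 14.0% and 19.5% in round cells. Fosl2, which encodes the FOS relative FRA2, averaged 209 normalised counts in elongating KO-labelled against 24 in elongating WT (log2 3.19, SE 0.32, adjusted p = 6.1e-07). In round cells it averaged 22.4 in KO-labelled against 10.3 in WT (log2 1.06, SE 0.32, adjusted p = 0.019), a call that ended when any 1 round library was left out (up to 0.1). Maff rose by 1.61 and Fosl1 fell by 1 in elongating cells, and each call ended when either of 2 elongating libraries was left out (up to 0.2 and 0.17). In round cells Maf rose by 1.47 and Mafk fell by 0.38, the call of Mafk ending when any 1 of 6 libraries was left out (up to 0.21).

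Of 16 ATF and CREB genes, 4 rose and 8 fell in elongating (median log2 -0.22) and 2 rose and 1 fell in round KO-labelled cells (median 0.05). By total reads 2 rose and 10 fell in elongating cells, and 1 rose and 1 fell in round cells. As deposited 27.3% of all genes rose and 27.7% fell in elongating cells, and 19.4% rose and 12.6% fell in round cells. The shares by total reads were 8.89% and 62.8% in elongating and 14.0% and 19.5% in round cells. In elongating cells Atf1 rose by 0.72, Crem by 0.65 and Crebzf by 0.44 as deposited, and by total reads they were at 0.15, 0.08 and -0.12. Creb1, Atf6b and Creb3 fell by 0.86, 0.71 and 0.57, the call of Creb3 ending when either of 2 elongating libraries was left out (up to 0.11). In round cells Atf6 rose by 0.8, having fallen by 0.53 in elongating cells. Atf1 rose by 0.18 and Atf4 fell by 0.34, calls that ended when any 1 of 2 and 3 round libraries was left out (up to 0.099 and 0.15). In elongating cells Atf4 fell by 0.27, a call that ended when any 1 of 6 libraries was left out (up to 0.21).

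Of 34 kinases and cofactors that act upstream of the members, 12 rose and 9 fell in elongating (median log2 -0.14) and 6 rose and 5 fell in round KO-labelled cells (median -0.02). By total reads the balance turned at both stages, where 3 rose and 25 fell in elongating and 4 rose and 9 fell in round cells. On that scale 8.89% of all genes rose and 62.8% fell in elongating cells, and 14.0% rose and 19.5% fell in round cells. As deposited these shares were 27.3% and 27.7% in elongating and 19.4% and 12.6% in round cells. Map2k2, a kinase above ERK, rose by 0.77 and 0.52 at these stages and Map3k1, a kinase above JNK, by 1.5 in round cells. The CREB coactivator gene Crtc2 rose by 1.03 and Mapkapk2 by 0.99 in elongating cells, where Rps6ka4, Prkaca and Mkl1 fell by 1.1, 0.62 and 0.58. In round cells Mapk8, which encodes JNK1, and Ep300, which encodes p300, fell by 0.42 and 0.44. Mapkapk2 rose there by 0.65 and Elk3 fell by 0.73, calls that ended when any 1 of 2 and 5 libraries was left out (up to 0.12 and 0.33).

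Of 16 heat shock genes, 6 rose and 6 fell in elongating (median log2 -0.05) and 3 rose and 2 fell in round KO-labelled cells (median 0.04). By total reads more fell than rose at both stages, where 4 rose and 11 fell in elongating and 3 rose and 6 fell in round cells. Among all genes, by total reads, 8.89% rose and 62.8% fell in elongating and 14.0% rose and 19.5% fell in round cells. As deposited the shares were 27.3% and 27.7% in elongating and 19.4% and 12.6% in round cells. Hspa1b, an inducible HSP70 gene, rose by 2.36 and 1.55 at these stages, and its near-identical neighbour Hspa1a by 1.19 in elongating cells, so the split of reads between them is uncertain. Dnajb1 rose by 0.87 and 0.4 and Hsp90aa1 by 0.21 in round cells, while Bag3 fell by 0.51 and 0.57, Hspa5 by 0.48 and 0.28 and Hsf2 by 1 in elongating cells. The list summed to 879 to 884 RPM in elongating KO-labelled, 913 to 939 in elongating WT, 3680 to 3950 in round KO-labelled and 3700 to 3770 RPM in round WT libraries. The 8 members together summed to 334 to 362 RPM in elongating KO-labelled, 264 to 269 in elongating WT, 102 to 105 in round KO-labelled and 61.6 to 67.4 RPM in round WT libraries, and the 7 other than Jund to 203 to 213 RPM in elongating KO-labelled, 125 to 129 in elongating WT, 42.6 to 44.1 in round KO-labelled and 20.4 to 20.5 RPM in round WT libraries. In RPM the heat shock sums were lower in elongating than in round cells and the members' sums higher. As deposited the heat shock sums were 38980 to 39980 in elongating and 42930 to 46070 in round KO-labelled libraries. In WT libraries they were 27770 to 28340 and 40510 to 41390. Hsp90aa1 made up 52.7% of the round KO-labelled and 49.3% of the round WT sum in RPM. As deposited 7 heat shock genes rose and 8 fell from round to elongating KO-labelled cells, and 6 rose and 10 fell in WT cells. Of all genes, 42.6% rose and 41.8% fell there in KO-labelled cells, and 41.7% rose and 40.2% fell in WT cells.

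**Figure D5:**
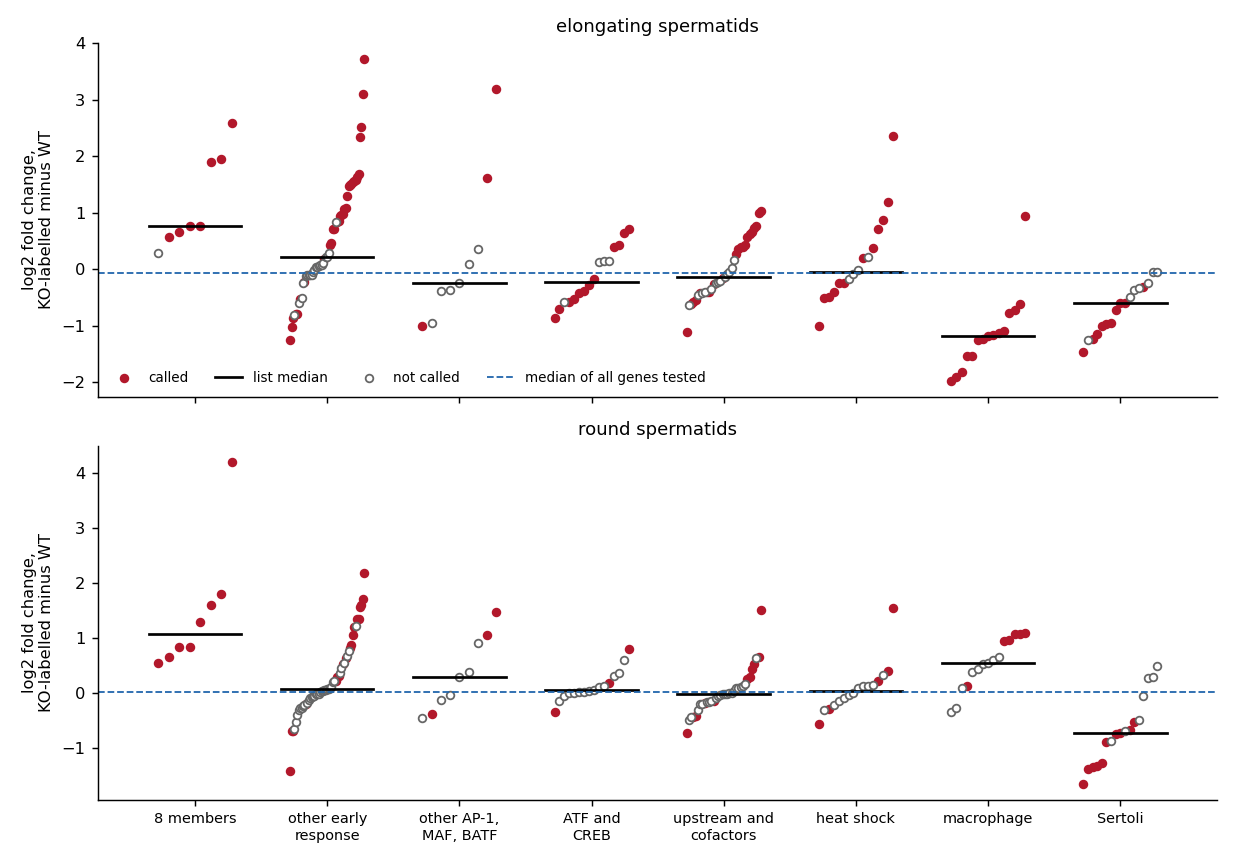
log2 fold change, KO-labelled minus WT, of every tested gene of 8 lists in elongating (top) and round (bottom) spermatids, with called genes filled, list medians as black lines and the median of all genes dashed. All 8 members lie above that median at both stages (Atf3 in round cells is drawn at its fitted value, which depends on the added 1), and most macrophage markers lie below it in elongating cells.

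Btg2, an antiproliferative gene that is itself an early response gene, had the pattern most like the members', with Pearson r = 0.9996 to their mean standardised profile over 8 libraries. It had 632 and 613 normalised counts in elongating KO-labelled, 300 and 290 in elongating WT, 38.8 and 42.8 in round KO-labelled and 15.3 and 15.7 in round WT libraries. The order is that of the members, without overlap. Trim54, Saysd1, Dmrtc1a and Cspg4 came next, at r of 0.9992, 0.9991, 0.9989 and 0.9989. The 8 libraries form 4 groups that differ by stage, and 16.5% of 15677 genes reached 0.95, so these values are a description. Between pairs of members r ran from 0.9 for Fosb and Ier2 to 0.999 for Jun and Jund.

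The members are spread over 6 chromosomes (GENCODE M21, GRCm38). Fos is at chromosome 12, 85473890 to 85477273, plus strand, Fosb at chromosome 7, 19302696 to 19310051, minus strand, Jun at chromosome 4, 95049034 to 95052222, minus strand and Atf3 at chromosome 1, 191170296 to 191218039, minus strand. Junb is at chromosome 8, 84974484 to 84978718, minus strand, Jund at chromosome 8, 70698949 to 70700616, plus strand, Ier2 at chromosome 8, 84661331 to 84662852, minus strand and Egr1 on chromosome 18. Jun, Jund and Ier2 are annotated with 1 exon. The library kit does not mark strand, and Jun shares 689 bases with its antisense gene Junos, Jund 919 bases with the antisense gene Gm11175 and Junb 351 bases with Prdx2 on the other strand, so reads there cannot be told apart. Prdx2 averaged 213 normalised counts in elongating KO-labelled against 325 in elongating WT and 49 in round KO-labelled against 51.9 in round WT. Atf3 also contains the small RNA gene Gm24748, which shares 108 bases with it.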

How the data were processed

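Poly A RNA was sequenced from TruSeq v2 libraries, per the labels' protocols. Processing notes of the submitters list CASAVA (1.8.2), TopHat2 (2.0.10), HTSeq (0.6.0), DESeq (1.16.0) and builds mm10 and GRCm38; no source used here gives their roles, annotation or strand setting. The values the authors deposited are a normalized signal per gene. Division by the smallest value above 0 in a library returned whole reads for 100% of values (tolerance 1e-06), and the lowest gene total was 15 reads.

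Members and lists were chosen with earlier results of these data known. The test was limma 3.58.1 in R 4.3.3, with trended empirical Bayes variances, on log2(value + 1) of 15685 genes reaching 10 in 2 or more libraries. It fitted 4 group means to 8 libraries (4 residual degrees of freedom), with 1 variance per gene shared by all groups and no weight for read depth. Fold changes on this scale understate low genes. A call is a two-sided adjusted p under 0.05, Benjamini-Hochberg over all genes tested, and rose and fell are used of calls. Per-million values and alternatives used the recovered reads: total-count, TMM or top-50-free library sizes, edgeR 4.0.16 and DESeq2 1.42.0. Other alternatives were pseudocounts of 0.5 and 5, no filter, only the 4 libraries compared, a replicate block and leaving out each library. The fits were tested on simulated data. Named besides the members and Carm1 were, per list and knockout contrast, up to 3 called genes with the largest rise and 3 with the largest fall, the genes called in both where a list has 6 or fewer, and the 5 genes most like the members. Of marker lists mainly counts and sums are given. Intervals cover counting error only, and floors cover that of the group at 0 reads only.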

Additional observations from a re-analysis of the deposited data

Results flagged for a closer look

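In 5 members the difference between KO-labelled and WT cells differed between the stages by the interaction term in limma. As log2 differences, elongating minus round, the values were 1.3 for Fosb, 1.25 for Egr1, -1.04 for Fos, -0.92 for Junb and -2.24 for Atf3. For Atf3 the value depends on the number added before the logarithm, since round WT libraries held 0 reads, and with 5 added it was -0.24 (adjusted p = 0.499).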

How the results depend on the processing

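Of 712 values of the members under 18 alternatives, 688 kept their direction and their side of the threshold, 10 lost their call, 4 gained one and 10 changed sign. With total-count scaling 3 members were called in elongating KO-labelled against WT cells in place of 7. For the difference between the stages 8 were called in place of 5, with total-count scaling and with library sizes that leave out the 50 most abundant genes, and Jund, at 0.03 and not called as deposited, reversed with a call to -0.45 and -0.39. Without a call it also changed sign to -0.0066 with TMM and -0.0063 with edgeR, and ran from -0.067 to 0.12 when 1 library was left out. Ier2 in elongating KO-labelled against WT cells, not called on any of these scales, reversed to -0.26 with total-count scaling and -0.20 with library sizes that leave out the 50 most abundant genes. These scalings set all elongating KO-labelled values lower against the rest. Over all genes, higher and lower calls numbered 4279 and 4348 as deposited against 1394 and 9854 by total reads in elongating KO-labelled against WT cells, 3041 and 1977 against 2197 and 3060 in round cells, 3031 and 2750 against 858 and 7071 for their difference, 6677 and 6552 against 2617 and 11422 between the stages in KO-labelled and 6548 and 6300 against 3067 and 10799 in WT cells. In round cells edgeR called 4156 and 3163, and leaving out 1 library gave 3359 to 5858 calls in all. The replicate block left the members' counts at 7, 8, 5, 8 and 8 in these 5 comparisons. Same-numbered libraries did not deviate together (r from -0.0148 to 0.0312). This cannot tell whether they share a pool or a preparation, since sharing one need not shift the values. Leaving out any 1 library ended no call of a member except that of Ier2 in round cells. Of the calls in the 5 lists of related genes, 20 of 80 in elongating and 19 of 42 in round cells ended when some 1 library was left out. Reads limit Ier2 and Atf3 in round cells most.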
